A study of Homo sapiens with 12 samples.

Results

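The genes of microtubules and of the motors that walk on them were followed in RNA captured with 2 human miRNAs. Members were all listed array probes whose platform symbol begins with TUBA, TUBB, TUBG, KIF followed by a digit, KIFC, DYNC, DYNL or DCTN. After 1 pseudogene probe was left out, 82 probes of 62 genes remained, of 15329 probes and 9647 genes in all. They were 4 alpha tubulins, 7 beta tubulins, 2 gamma tubulins, 4 gamma-tubulin complex proteins, 6 dynein light chains, 2 dynein heavy chains, 5 other dynein chains, 6 dynactin subunits, 12 mitotic kinesins and 14 other kinesins.

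All RNA came from HEK293T, an established human line of embryonic kidney origin with the large T antigen of SV40. Cells received 200 pmol of a biotinylated synthetic duplex of miR-199a-5p or of miR-424-3p and were harvested after 24 hours, so that all 4 groups had been transfected and none was free of duplex. There were 3 arrays each of the miR-199a-5p pull-down, the miR-199a-5p input, the miR-424-3p pull-down and the miR-424-3p input. A pull-down is the RNA that streptavidin beads recovered with the biotinylated duplex, and an input is RNA of cells given the same duplex. The labels name miR-199a-5p, although a legend in the study's supplement names miR-199b-5p, and the labels were followed. The question was which mRNAs associate with each miRNA, and pull-down was therefore set against input within each miRNA.

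Values were normalized log2 signals, and every change is given in log2 units with its standard error. Array medians lay between 9.149 and 9.208, so a member counted as enriched or depleted did so relative to the rest of the RNA on the same arrays. Arrays of a group correlated at r = 0.983 or more across probes. The labels do not say whether replicates were separate cultures, while the legend that names miR-199b-5p calls the transfections independent repeats. The p-values measure the spread between these arrays. Of 8 genes taken as marks of HEK293 cells, 7 were listed, with VIM at 13.74 to 13.97 on the input arrays. The other listed marks lay much lower, between 8.32 (KRT18) and 10.29 (NEFM). Of 8 marks of other cell types, 2 were listed, ALB at 8.22 to 8.66 and COL1A1 at 7.82 to 8.14. KRT18 (8.32 to 8.74), NEFL (8.64 to 8.82) and KRT8 (8.61 to 9.23) overlapped the range of ALB. A gene entered with its brightest probe, the one with the highest mean over the 12 arrays.

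Microtubules are hollow filaments of alpha and beta tubulin dimers. Gamma tubulin, held in a ring by the gamma-tubulin complex proteins, starts their growth. Most kinesins carry cargo towards the plus end, whereas cytoplasmic dynein, with its cofactor dynactin, moves towards the minus end, and in dividing cells both build and run the spindle. Tubulins and dynein light chains are smaller proteins than kinesins and dynein heavy chains, and their mRNAs were taken as short. Kinesins and dynein heavy chains are large, and the heavy chain mRNAs are among the long ones of the cell. The comparison of a short class (all tubulins and the dynein light chains, 19 genes) with a long class (all kinesins and the dynein heavy chains, 28 genes) rests on these names, since mRNA length was not measured here. The remaining 15 genes belonged to neither class.

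The captured miRNAs are shown because the comparisons turn on which of them was on the beads. These are the mature sequences of RefSeq (assembly GRCh38.p14), 5′ to 3′, with the seed (bases 2 to 8, the part that most often pairs with a target) in capitals. miR-199a-5p has 2 genes with the same mature sequence, MIR199A2 on the minus strand at chr1:172144592-172144614 and MIR199A1 on the minus strand at chr19:10817469-10817491. MIR424 is on the minus strand at chrX:134546644-134546664.
hsa-miR-199a-5p: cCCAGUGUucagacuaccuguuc
hsa-miR-424-3p: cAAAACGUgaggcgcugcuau
The seeds differ, with 4 of 7 bases G or C in miR-199a-5p and 2 of 7 in miR-424-3p. The strands of the transfected duplexes and their sites in the member transcripts were not examined.

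The short and long classes moved apart with miR-199a-5p. Of the 19 short-class genes, 2 were enriched, 8 depleted and 9 not called, with a median change of -0.25. Among the 28 long-class genes, 12 were enriched, 2 depleted and 14 not called, with a median of 0.28. Over all 9647 genes, 29.9% were called higher and 20.1% lower in this comparison, and the median was 0.06. Depletion in the short class came mostly from the 6 dynein light chains, of which 5 were depleted (median -0.64). The 13 tubulins had 3 depleted by brightest probe, or 23.1%, close to the share of all genes, and a median of -0.06. By probe, however, 8 of 20 tubulin probes were depleted (40.0%, against 25.9% of all probes), with a median of -0.19.

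With miR-424-3p the classes did not part in this way. The short class had 9 genes enriched, 2 depleted and 8 not called (median 0.28), and the long class had 9 enriched, 5 depleted and 14 not called (median 0.18). The background here was 30.3% higher and 25.7% lower, with a median of 0.03. Both classes had positive medians. Within the short class the tubulins had a median of 0.41 and the dynein light chains of -0.12.

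Array by array, the class medians were taken over the mean of each miRNA's own inputs. The short class stood at -0.29, -0.16 and -0.16 on the miR-199a-5p pull-down arrays, against 0.03, 0.03 and -0.04 on the inputs. The long class stood at 0.18, 0.20 and 0.29 on the same pull-downs, against -0.07, 0.00 and 0.06 on the inputs. In both classes the pull-down arrays lay apart from the input arrays, on opposite sides. Of the short class, the light chains stood at -0.60, -0.52 and -0.77 on these pull-downs, against 0.05, 0.06 and -0.07 on the inputs. The tubulins stood at -0.16, -0.13 and 0.02, against 0.03, 0.01 and -0.04 on the inputs, and so overlapped them. The miR-424-3p pull-downs had short-class medians of 0.31, 0.25 and 0.20, against 0.05, -0.01 and 0.01 on their inputs. Their long-class medians were 0.13, 0.04 and 0.16, against -0.07, 0.02 and 0.00 on the inputs. All of these pull-down medians lay above those of the inputs.

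**Figure D1:**
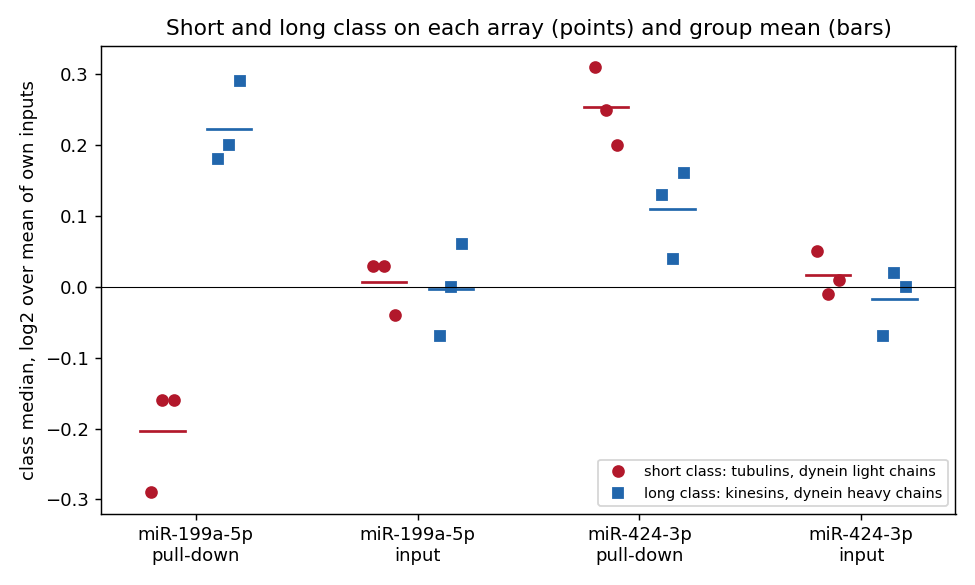
Median change of the short class (circles, 19 genes) and the long class (squares, 28 genes) on each of the 12 arrays, as log2 over the mean of the inputs of the same miRNA, with bars at the mean of 3 arrays. On the miR-199a-5p pull-downs the short class lies at -0.29 to -0.16 and the long class at 0.18 to 0.29, and on the miR-424-3p pull-downs both lie above 0.

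As means over genes, the short class minus the long class came to -0.73, -0.50 and -0.51 on the miR-199a-5p pull-down arrays, against 0.11, 0.00 and -0.11 on the inputs. On the miR-424-3p pull-downs it was 0.06, 0.09 and -0.01, against 0.09, -0.09 and -0.02 on the inputs. The class difference thus lay outside the input range with miR-199a-5p and inside it with miR-424-3p. Signals of the brightest probes also differed between the classes, with mean log2 levels of 8.55 to 14.64 in the short class and 8.08 to 10.99 in the long class, and the part of signal level in the class difference was not tested. The choice of probe moved the short class, whose 31 probes gave 4 enriched and 18 depleted (median -0.56) with miR-199a-5p, and 12 enriched and 9 depleted (median 0.10) with miR-424-3p. The 33 long-class probes gave 14 enriched and 4 depleted (median 0.26) with miR-199a-5p, and 9 enriched and 7 depleted (median 0.10) with miR-424-3p. Over all 15329 probes the shares were 25.6% higher and 25.9% lower with miR-199a-5p, and 26.3% higher and 28.8% lower with miR-424-3p.

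The alpha tubulins are the dimer subunits that keep a bound nucleotide locked between the chains. In RefSeq, TUBA1A neighbours both TUBA1B and TUBA1C, and these near-identical copies may share probe signal, so that a value may not belong to 1 copy alone. TUBA1A measured 14.66, 14.72 and 15.08 on the miR-199a-5p pull-down arrays, against 14.36, 14.45 and 14.43 on the inputs. It was enriched by 0.41 ± 0.11 (limma adjusted p = 0.00512), although with quantile normalization the change was 0.19 and no longer called. On the miR-424-3p pull-downs it measured 14.84, 15.01 and 14.91, against 14.46, 14.40 and 14.36 on the inputs (0.51 ± 0.11, adjusted p = 0.000939). In neither comparison did the arrays overlap. Its second probe behaved differently, at 10.82, 11.38 and 11.26 on the miR-199a-5p pull-downs, against 12.69, 13.10 and 13.26 on the inputs (-1.86 ± 0.18, adjusted p = 1.48e-06). That is the lowest value of any member probe with miR-199a-5p, and the same probe gave -0.36 ± 0.18 with miR-424-3p (adjusted p = 0.102).

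TUBA1C was the mirror image of TUBA1A. Its brightest probe measured 13.14, 13.65 and 13.96 on the miR-199a-5p pull-downs, against 14.30, 14.44 and 14.48 on the inputs (-0.82 ± 0.17, adjusted p = 0.00108). Its second probe was enriched by 0.60 ± 0.15 (adjusted p = 0.00516), with 13.55, 13.60 and 14.17 on the pull-downs, against 12.99, 13.35 and 13.19 on the inputs. No array overlapped in either probe, and the calls were opposite. With miR-424-3p the brightest probe changed by 0.05 ± 0.17 (adjusted p = 0.876) and the second was enriched by 0.65 ± 0.15 (adjusted p = 0.00268). TUBA1B was enriched with miR-424-3p (0.47 ± 0.11, adjusted p = 0.00226) and measured 0.07 ± 0.11 with miR-199a-5p. TUBA3D passed in neither, at -0.12 and 0.28.

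The beta tubulins are the other part of the dimer, and their isotypes differ by tissue. TUBB4A, an isotype best known from brain, gave opposite calls with the miRNAs. It measured 8.67, 9.01 and 9.07 on the miR-199a-5p pull-downs, against 9.65, 9.83 and 9.92 on the inputs (-0.88 ± 0.12, adjusted p = 4.08e-05). With miR-424-3p the pull-downs measured 10.69, 10.49 and 10.77, against 9.65, 9.93 and 9.88 on the inputs (0.83 ± 0.12, adjusted p = 5.91e-05). The inputs of both miRNAs covered nearly the same range, and the pull-downs lay on either side of it.

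TUBB3, the isotype used as a mark of neurons, was enriched with miR-424-3p and not called with miR-199a-5p. It measured 9.68, 9.88 and 9.42 on those pull-downs, against 9.20, 8.46 and 8.41 on the inputs (0.97 ± 0.18, adjusted p = 0.000431). On the miR-199a-5p arrays it measured 8.52, 8.38 and 8.55 in pull-downs, against 8.77, 8.45 and 8.39 in inputs, which overlap. The test of the difference between the enrichments passed (-1.03 ± 0.26, adjusted p = 0.00619).

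TUBB, a widely expressed isotype, was enriched with both miRNAs by its brightest probe. The miR-199a-5p pull-downs measured 13.28, 13.50 and 13.68, against 13.04, 13.17 and 13.13 on the inputs (0.37 ± 0.11, adjusted p = 0.0121). Without miR-199a-5p pull-down array 3 that change was 0.28 and not called (adjusted p = 0.0547). The miR-424-3p pull-downs measured 13.74, 13.49 and 13.76, against 12.91, 13.08 and 13.08 on the inputs (0.64 ± 0.11, adjusted p = 0.000233). A second TUBB probe was depleted with miR-199a-5p, at 11.44, 12 and 12.42 on the pull-downs, against 12.92, 13.02 and 13.12 on the inputs (-1.06 ± 0.19, adjusted p = 0.000331). With miR-424-3p it gave 0.12 ± 0.19.

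Of the other beta tubulins, TUBB4B was depleted with miR-199a-5p (-0.48 ± 0.12, adjusted p = 0.00378) and gave 0.09 ± 0.12 with miR-424-3p. TUBB2B gave -0.04 ± 0.11 with miR-199a-5p and was enriched with miR-424-3p (0.42 ± 0.11, adjusted p = 0.00654). TUBB2A, its neighbour in RefSeq and a near-identical copy, passed in neither, at -0.35 ± 0.15 and -0.09 ± 0.15, but was called lower with miR-199a-5p without pull-down array 1 (-0.45, adjusted p = 0.0307), pull-down array 2 (-0.42, adjusted p = 0.0486) or miR-424-3p input array 1 (-0.35, adjusted p = 0.0411). TUBB6 also passed in neither by its brightest probe, at -0.25 and -0.27, whereas its second probe was depleted in both, at -0.98 ± 0.15 and -0.82 ± 0.15. Its brightest probe was called lower with miR-424-3p without miR-424-3p pull-down array 1 (-0.42, adjusted p = 0.0165) or input array 2 (-0.38, adjusted p = 0.0415). Over the 13 tubulins, 2 were enriched (15.4%, against 29.9% of all genes), 3 depleted (23.1%, against 20.1%) and 8 not called with miR-199a-5p. With miR-424-3p, 7 were enriched (53.8%, against 30.3% of all genes), none was depleted (against 25.7%) and 6 were not called, although 1 tubulin was lower at an unadjusted p under 0.05. Counted as 20 probes, 4 were enriched (20.0%, against 25.6% of all probes) and 8 depleted (40.0%, against 25.9%) with miR-199a-5p. With miR-424-3p, 9 probes were enriched (45.0%, against 26.3%) and 3 depleted (15.0%, against 28.8%).

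Gamma tubulin sits at the base of new microtubules. TUBG1 was read by 4 probes, which fell into pairs. The brightest measured 12.14, 12.43 and 12.34 on the miR-199a-5p pull-downs, against 12.37, 12.01 and 11.88 on the inputs (0.22 ± 0.13, adjusted p = 0.164), with overlapping arrays, and was called without input array 1, its highest input (0.36, adjusted p = 0.0239). The other 3 gave 0.28 ± 0.10, -0.77 ± 0.09 and -0.61 ± 0.14 with miR-199a-5p, all called. With miR-424-3p the 4 probes gave 0.41, 0.39, -0.51 and -0.43, also all called and in the same pairs. The miR-424-3p call of the brightest probe (adjusted p = 0.0135) was lost without pull-down array 3 (0.37, adjusted p = 0.0521) and without input array 2 (0.33, adjusted p = 0.0675). TUBG2, adjacent to TUBG1 in RefSeq, passed in neither, at 0.16 and 0.10.

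The gamma-tubulin complex proteins build the ring. TUBGCP6 was enriched with miR-199a-5p by its brightest probe, at 9.57, 8.82 and 9.11 on the pull-downs, against 8.52, 8.69 and 8.62 on the inputs (0.56 ± 0.15, adjusted p = 0.00597), and its second probe gave -0.05. TUBGCP2, TUBGCP4 and TUBGCP5 lay between 0.02 and 0.15 and were not called. With miR-424-3p none of the 4 was called, at -0.26 to 0.10, and 1 was lower at an unadjusted p under 0.05. TUBGCP4 was called lower there without pull-down array 2 (-0.36, adjusted p = 0.0467).

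**Figure D2:**
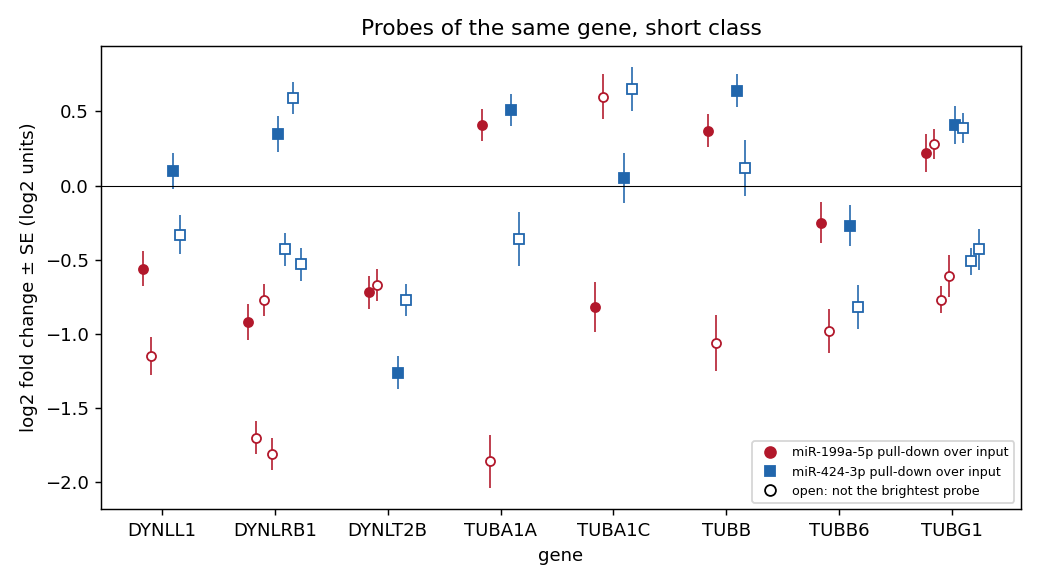
Change in pull-down over input (log2 units, ± SE) for every probe of the 8 short-class genes with several probes, circles for miR-199a-5p and squares for miR-424-3p, filled for the brightest probe and open for the others. Probes of TUBA1A (0.41 and -1.86), TUBA1C (-0.82 and 0.60), TUBB (0.37 and -1.06) and TUBG1 lie on both sides of 0 with miR-199a-5p, while all 4 of DYNLRB1 lie at -0.77 or lower.

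Probes of a single gene could disagree. Of the 16 members with several probes, 4 had opposite calls with miR-199a-5p (TUBA1A, TUBA1C, TUBB and TUBG1), 3 had only some probes called, 6 had all probes called the same way and 3 had none called. With miR-424-3p, 2 had opposite calls (DYNLRB1 and TUBG1), 8 had only some called, 3 had all called the same way and 3 had none called. In the difference between the enrichments, where fewer probes are called, no gene had opposite calls, 4 had only some called (DYNLT2B, TUBA1A, TUBA1C and TUBB), 4 had all called the same way (DYNLL1, DYNLRB1, KIF11 and KIF3B) and 8 had none called. How often the probes of a gene disagree among all genes of the arrays was not counted. Where each probe lies in its transcript was not examined.

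The dynein light chains are small subunits at the base of the dynein tail, some of which also bind proteins outside dynein. With miR-199a-5p 5 of the 6 were depleted (83.3%, against 20.1% of all genes), none was enriched and 1 was not called, with a median of -0.64. The one at an unadjusted p under 0.05 in the other direction was DYNLL2, at 0.36 ± 0.18 (adjusted p = 0.113), which was called without miR-199a-5p input array 1 (0.51, adjusted p = 0.0409). Of the 11 light chain probes, 10 were depleted (90.9%, against 25.9% of all probes). With miR-424-3p 2 of the 6 genes were enriched and 2 depleted (33.3% each way, against 30.3% and 25.7% of all genes). By probe, 3 of 11 were enriched (27.3%, against 26.3% of all probes) and 6 depleted (54.5%, against 28.8%) with miR-424-3p.

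DYNLT1, a Tctex-type light chain, was depleted with both miRNAs. It measured 10.93, 11.12 and 10.93 on the miR-199a-5p pull-downs, against 12, 12.17 and 12.27 on the inputs (-1.15 ± 0.11, adjusted p = 8.67e-07). The miR-424-3p pull-downs measured 10.76, 10.72 and 10.50, against 11.90, 12.15 and 12.08 on the inputs (-1.38 ± 0.11, adjusted p = 1.72e-07). All pull-down arrays lay well below all inputs in both comparisons. DYNLT2B, a light chain of ciliary dynein, was likewise depleted with both, by -0.72 ± 0.11 and -1.26 ± 0.11. On the miR-424-3p arrays it measured 9.36, 9.40 and 9.19 in pull-downs, against 10.80, 10.50 and 10.42 in inputs (adjusted p = 4.98e-07). DYNLT3 was depleted with miR-199a-5p (-0.44 ± 0.14, adjusted p = 0.018) but its arrays overlapped, and the call was lost without pull-down arrays 1 or 3 or input arrays 2 or 3, where the change was -0.34 to -0.41. With miR-424-3p it gave -0.34 ± 0.14 (adjusted p = 0.0541), and it was called there without pull-down array 3 (-0.45, adjusted p = 0.0245) or, at the same -0.34, without miR-199a-5p pull-down arrays 2 or 3 or input array 1 (adjusted p = 0.0319 to 0.0419).

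DYNLRB1, a roadblock-type light chain, had opposite calls in the pull-downs. It measured 10.98, 11.22 and 11.36 on the miR-199a-5p pull-downs, against 12.13, 12.17 and 12 on the inputs (-0.92 ± 0.12, adjusted p = 2.1e-05). On the miR-424-3p pull-downs it measured 12.68, 12.36 and 12.35, against 11.99, 12.10 and 12.25 on the inputs (0.35 ± 0.12, adjusted p = 0.0232). No arrays overlapped, but the miR-424-3p call was lost without pull-down array 1 (0.24, adjusted p = 0.118), input array 1 (0.29, adjusted p = 0.0851) or input array 2 (0.35, adjusted p = 0.058). Its 3 other probes gave -1.70, -0.77 and -1.81 with miR-199a-5p, and -0.43, 0.59 and -0.53 with miR-424-3p, all called. The 4 probes thus split with miR-424-3p, yet the difference between the enrichments was close to the same in each, at -1.26 to -1.36.

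DYNLL1, the LC8-type light chain that dimerises many partner proteins, was depleted with miR-199a-5p. It measured 13.66, 13.71 and 13.20 on the pull-downs, against 14.17, 14.02 and 14.04 on the inputs (-0.56 ± 0.12, adjusted p = 0.00152). With miR-424-3p the pull-downs measured 13.99, 14.18 and 14.21, against 13.97, 14.05 and 14.07 on the inputs, which overlap (0.10 ± 0.12). Its second probe was depleted in both, by -1.15 ± 0.13 and -0.33 ± 0.13. DYNLL2, its close relative, was enriched with miR-424-3p (0.48 ± 0.18, adjusted p = 0.0387), a call that was lost without pull-down array 2 (0.32, adjusted p = 0.184), input array 2 (0.39, adjusted p = 0.142) or input array 3 (0.48, adjusted p = 0.0805).

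The dynein heavy chains carry the motor domain. Both were enriched with miR-199a-5p. DYNC1H1, the motor of cytoplasmic dynein, measured 11.75, 10.93 and 10.80 on the pull-downs, against 9.87, 10.02 and 10.25 on the inputs (1.12 ± 0.20, adjusted p = 0.000423). DYNC2H1, the motor of the dynein that returns cargo along cilia, measured 11.90, 11.03 and 11.06 on the pull-downs, against 9.55, 9.90 and 9.96 on the inputs (1.53 ± 0.19, adjusted p = 2.53e-05). Pull-down array 1 was the highest for both, and without it the changes were 0.82 and 1.24, still called.

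With miR-424-3p, DYNC2H1 measured 10.72, 10.91 and 10.74 on the pull-downs, against 9.45, 9.79 and 9.64 on the inputs (1.16 ± 0.19, adjusted p = 0.000136). DYNC1H1 measured 10.61, 10.15 and 10.49, against 9.84, 10.13 and 9.91 on the inputs, and did not pass (0.46 ± 0.20, adjusted p = 0.0715). It was called without miR-424-3p pull-down array 2 (0.59, adjusted p = 0.0415), or, at the same 0.46, without miR-199a-5p pull-down array 1 (adjusted p = 0.0096) or array 3 (adjusted p = 0.0458). The difference between the enrichments was 0.66 ± 0.29 for DYNC1H1 (adjusted p = 0.0837) and 0.37 ± 0.27 for DYNC2H1 (adjusted p = 0.298), neither called. For DYNC1H1 it was called without miR-199a-5p pull-down array 3 (0.84, adjusted p = 0.0265).

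The other dynein chains link motor and cargo. DYNC2LI1, a light intermediate chain of the ciliary dynein, measured 7.97, 7.97 and 7.96 on the miR-199a-5p pull-downs, against 9.03, 9.20 and 9.31 on the inputs (-1.21 ± 0.09, adjusted p = 2.26e-07). With miR-424-3p it measured 7.87, 7.97 and 7.88 on the pull-downs, against 8.72, 8.95 and 8.92 on the inputs (-0.95 ± 0.09, adjusted p = 1.34e-06). Both sets of pull-down values lay near the low end of the array scale, where differences are compressed. DYNC1LI2, a light intermediate chain of cytoplasmic dynein, measured 12.28, 12.34 and 12.30 on the miR-199a-5p pull-downs, against 11.63, 11.75 and 11.94 on the inputs (0.53 ± 0.09, adjusted p = 0.000268). On the miR-424-3p arrays it measured 11.10, 11.16 and 11.07 in pull-downs, against 11.62, 11.63 and 11.75 in inputs (-0.56 ± 0.09, adjusted p = 0.000125). These calls were opposite, and in both the arrays stood clear of one another.

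The intermediate chains gave smaller changes. DYNC1I2, of cytoplasmic dynein, was depleted with miR-199a-5p (-0.30 ± 0.10, adjusted p = 0.0248), a call lost without pull-down arrays 1 or 2 or input arrays 2 or 3 (-0.25 to -0.30). DYNC2I1, of the ciliary dynein, was enriched with miR-199a-5p (0.28 ± 0.10, adjusted p = 0.0304), a call lost without pull-down arrays 1 or 3 or input array 2 (0.21 to 0.26). DYNC2I2, its partner, was enriched with miR-424-3p, at 11.45, 11.16 and 10.87 on the pull-downs, against 10.75, 10.53 and 10.56 on the inputs (0.54 ± 0.15, adjusted p = 0.00752).

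Dynactin binds dynein to its cargo and to the microtubule. DCTN6, a subunit at the pointed end of its filament, was depleted most of all members with miR-424-3p. It measured 8.84, 8.69 and 8.59 on those pull-downs, against 10.13, 10.49 and 10.42 on the inputs (-1.64 ± 0.13, adjusted p = 1.9e-07). On the miR-199a-5p pull-downs it measured 9.35, 9.57 and 9.08, against 10.42, 10.55 and 10.59 on the inputs (-1.19 ± 0.13, adjusted p = 3.63e-06). DCTN3, a subunit of the shoulder, was also depleted in both, by -0.73 ± 0.10 with miR-199a-5p (adjusted p = 5.01e-05) and -0.43 ± 0.10 with miR-424-3p (adjusted p = 0.003).

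DCTN4, another subunit of the pointed end, was the most enriched member with miR-424-3p. It measured 11.07, 11.06 and 11.05 on the miR-424-3p pull-downs, against 9.67, 9.74 and 9.29 on the inputs (1.5 ± 0.11, adjusted p = 1.24e-07). The miR-199a-5p pull-downs measured 10.34, 10.16 and 10.22, against 9.85, 10.10 and 10.02 on the inputs, and did not pass (0.25 ± 0.11, adjusted p = 0.0795). It was called there without miR-424-3p input array 3 (0.25, adjusted p = 0.0349), the lowest of its inputs.

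DCTN2, the subunit that forms the shoulder's core, measured 12.74, 12.72 and 12.82 on the miR-199a-5p pull-downs, against 11.80, 11.93 and 12.16 on the inputs (0.80 ± 0.11, adjusted p = 4.37e-05). With miR-424-3p it gave 0.21 ± 0.11 (adjusted p = 0.124). DCTN5 was enriched with miR-199a-5p, at 11.86, 11.94 and 12.23 on the pull-downs, against 11.40, 11.46 and 11.38 on the inputs (0.60 ± 0.14, adjusted p = 0.00239), and gave -0.14 ± 0.14 with miR-424-3p. DCTN1, the large arm that touches the microtubule, measured 11.21, 10.92 and 11.18 on the miR-424-3p pull-downs, against 10.68, 10.55 and 10.68 on the inputs (0.47 ± 0.10, adjusted p = 0.00109). With miR-199a-5p it gave 0.23 ± 0.10 (adjusted p = 0.0679) and was called without miR-199a-5p pull-down array 1 (0.28, adjusted p = 0.046) or miR-424-3p pull-down array 2 (0.23, adjusted p = 0.0485). Its second probe gave 0.15 and 0.17 and was not called. In all, dynactin had 2 subunits enriched, 2 depleted (33.3% each way) and 2 not called with each miRNA. Of all genes, 29.9% were higher and 20.1% lower with miR-199a-5p, and 30.3% and 25.7% with miR-424-3p. A DCTN gene of the pointed end stood at each extreme with miR-424-3p.

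**Figure D3:**
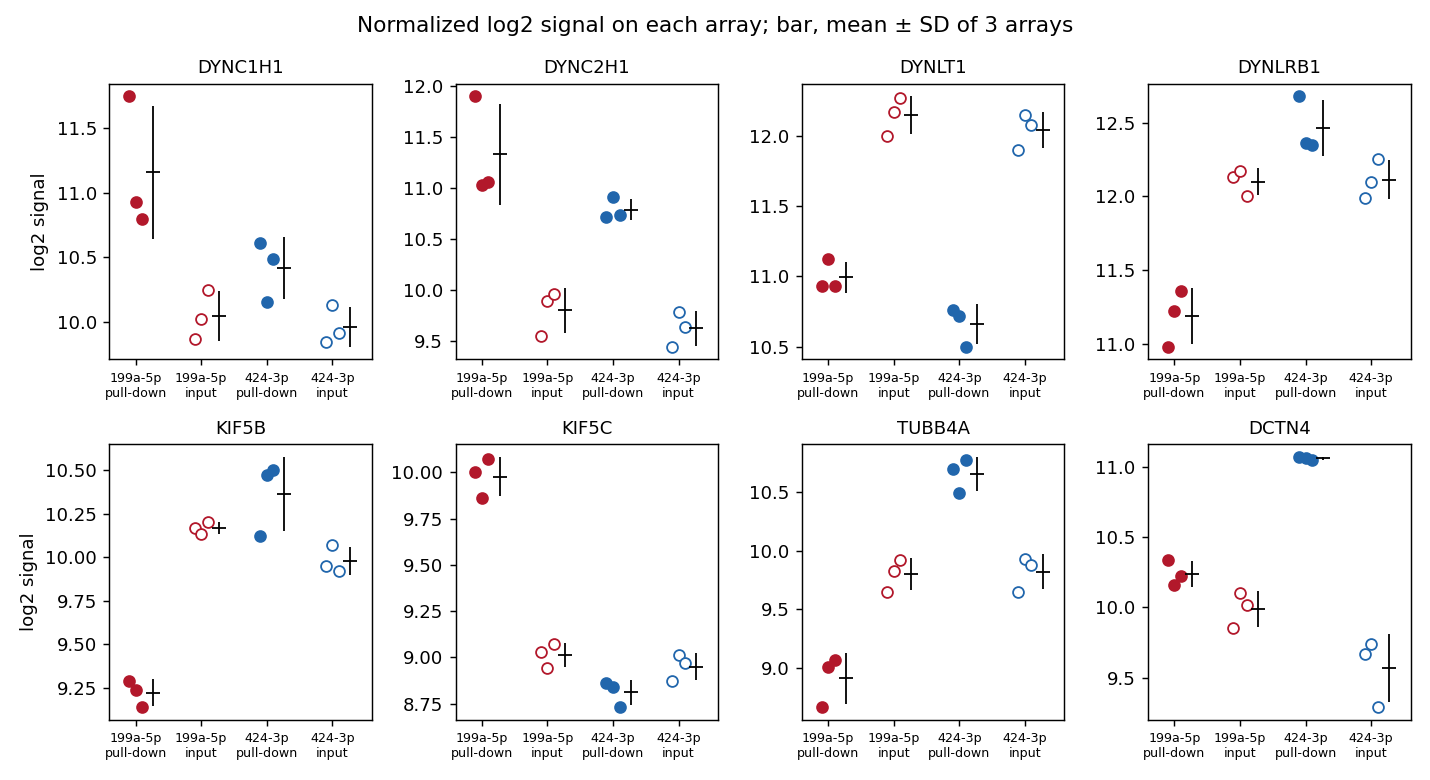
Normalized log2 signal of 8 members on each array (points, filled for pull-downs and open for inputs), with the mean and SD of 3 arrays beside each group. DYNLRB1, KIF5B and TUBB4A lie below their inputs on the miR-199a-5p pull-downs and above them on the miR-424-3p pull-downs, DYNLT1 lies below in both, and the vertical scale differs between panels.

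The mitotic kinesins build the spindle, align chromosomes and divide the cell. With miR-199a-5p 5 of 12 were enriched (41.7%, against 29.9% of all genes), 1 depleted (8.33%, against 20.1%) and 6 not called. With miR-424-3p 2 were enriched (16.7%, against 30.3%), 3 depleted (25.0%, near the 25.7% of all genes) and 7 not called. KIF11, which pushes spindle poles apart, measured 11.26, 11.19 and 11.03 on the miR-199a-5p pull-downs, against 10.29, 10.40 and 10.71 on the inputs (0.69 ± 0.13, adjusted p = 0.000463), and its second probe gave 0.57 ± 0.12. With miR-424-3p it measured 9.94, 10.29 and 10.29, against 10.46, 10.28 and 10.26 on the inputs (-0.16 ± 0.13), with overlap. KIFC1, a minus-end kinesin of spindle poles, was enriched with miR-199a-5p, at 11.12, 11.14 and 11.58 on the pull-downs, against 10.62, 10.67 and 10.36 on the inputs (0.73 ± 0.14, adjusted p = 0.000747). KIF20B, active in cytokinesis, was enriched as well (0.56 ± 0.13, adjusted p = 0.00264).

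KIF18A, which dampens chromosome movement at the plate, had opposite calls. It measured 8.93, 9.12 and 8.80 on the miR-199a-5p pull-downs, against 8.36, 8.63 and 8.72 on the inputs (0.38 ± 0.11, adjusted p = 0.00896). With miR-424-3p it measured 8.0, 8.17 and 8.12, against 8.51, 8.47 and 8.49 on the inputs (-0.39 ± 0.11, adjusted p = 0.00644). The pull-downs stood clear of the inputs on both sides.

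KIF22, a kinesin bound to chromosome arms, was enriched with both miRNAs, by 0.31 ± 0.10 in the miR-199a-5p pull-down and 0.56 ± 0.10 in the miR-424-3p pull-down. On the miR-424-3p arrays it measured 11.26, 11.63 and 11.54 in pull-downs, against 10.97, 10.93 and 10.86 in inputs (adjusted p = 0.000226). KIF20A, needed for cytokinesis, was enriched with miR-424-3p, at 11.13, 11.62 and 11.35 on the pull-downs, against 10.62, 10.94 and 10.80 on the inputs (0.58 ± 0.13, adjusted p = 0.00142), and gave -0.02 ± 0.13 with miR-199a-5p.

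KIF23, the motor of centralspindlin at the cleavage site, was depleted with both. The miR-424-3p pull-downs measured 8.91, 9.04 and 9.02, against 9.72, 10.06 and 9.64 on the inputs (-0.82 ± 0.14, adjusted p = 0.000259). With miR-199a-5p the arrays overlapped (-0.40 ± 0.14, adjusted p = 0.0303), and the call was lost without pull-down array 2 (-0.32, adjusted p = 0.117), pull-down array 3 (-0.34, adjusted p = 0.0948), input array 2 (-0.41, adjusted p = 0.0639) or input array 3 (-0.29, adjusted p = 0.136). Its second probe was depleted in both, by -0.37 ± 0.08 and -0.21 ± 0.08. KIF2A, which shortens microtubules from their ends, was depleted with miR-424-3p, at 9.09, 9.07 and 8.96 on the pull-downs, against 9.53, 9.66 and 9.74 on the inputs (-0.60 ± 0.13, adjusted p = 0.00105). Its relative KIF2C gave 0.44 ± 0.18 with miR-199a-5p (adjusted p = 0.0602), where pull-down array 3 at 10.18 stood above the others at 9.38 and 9.36. It was called without miR-199a-5p pull-down array 1 (0.57, adjusted p = 0.0288) or 2 (0.58, adjusted p = 0.0268), or without miR-424-3p input array 1 (0.44, adjusted p = 0.0425). KIF14 and KIF15 passed in neither comparison, nor did KIF4A, at 0.29 ± 0.12 with miR-199a-5p (adjusted p = 0.0542). KIF14 was called lower with miR-424-3p without its input array 1 (-0.34, adjusted p = 0.0366), and KIF4A was called higher with miR-199a-5p without its input array 3 (0.37, adjusted p = 0.0301), among others.

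Among the other kinesins, 5 of 14 were enriched (35.7%, near the 29.9% of all genes), 1 depleted (7.14%, against 20.1%) and 8 not called with miR-199a-5p. With miR-424-3p 6 were enriched (42.9%, against 30.3%), 2 depleted (14.3%, against 25.7%) and 6 not called. The heavy chains of conventional kinesin, which carry vesicles and organelles outwards, ran in opposite directions with miR-199a-5p. KIF5B, the ubiquitous heavy chain, measured 9.29, 9.24 and 9.14 on the miR-199a-5p pull-downs, against 10.17, 10.13 and 10.20 on the inputs (-0.94 ± 0.10, adjusted p = 4.36e-06). KIF5C, its neuronal relative, measured 10, 9.86 and 10.07 on the same pull-downs, against 9.03, 8.94 and 9.07 on the inputs (0.96 ± 0.09, adjusted p = 2.06e-06). KIF5B was 1 of 2 long-class genes depleted with this miRNA, the other being KIF23.

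On the miR-424-3p pull-downs KIF5B measured 10.12, 10.47 and 10.50, against 9.95, 10.07 and 9.92 on the inputs (0.38 ± 0.10, adjusted p = 0.0062). KIF5C measured 8.86, 8.84 and 8.73 on those pull-downs, against 8.87, 9.01 and 8.97 on the inputs, and did not pass (-0.14 ± 0.09, adjusted p = 0.173). Between the miRNAs, then, both heavy chains were shifted, each the other way. Only KIF5B passed in both pull-downs.

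KIF1A, a neuronal vesicle carrier, measured 10.85, 10.58 and 10.66 on the miR-199a-5p pull-downs, against 9.99, 10.06 and 9.95 on the inputs (0.70 ± 0.11, adjusted p = 0.000126), and gave 0.19 ± 0.11 with miR-424-3p. KIF1B was enriched with both, by 0.41 ± 0.13 in the miR-199a-5p pull-down and 0.47 ± 0.13 in the miR-424-3p pull-down. The first call was lost without pull-down array 2 (0.34, adjusted p = 0.065) or input array 1 (0.32, adjusted p = 0.0752), although its second probe gave 0.61 ± 0.11 (adjusted p = 0.000553). With miR-424-3p that second probe gave 0.24 (adjusted p = 0.0998) and was not called. KIF1C gave 0.18 and -0.18 and KIF13B 0.26 and 0.10, none called. KIF13B was called higher with miR-199a-5p without miR-199a-5p pull-down array 2 (0.34, adjusted p = 0.0312). At the same 0.26 it was also called without miR-424-3p pull-down array 2 (adjusted p = 0.0412) or array 3 (adjusted p = 0.0492). KIF16B, which moves early endosomes, was enriched with miR-424-3p (0.34 ± 0.11, adjusted p = 0.0139), a call lost without pull-down array 3 (0.27, adjusted p = 0.0706). With miR-199a-5p it gave 0.14 and was not called, whereas its second probe was depleted (-0.34 ± 0.10, adjusted p = 0.0126).

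KIF26A, an atypical kinesin, was enriched in both pull-downs. It measured 8.82, 8.62 and 9.11 on the miR-199a-5p pull-downs, against 7.97, 8.07 and 8.18 on the inputs (0.78 ± 0.13, adjusted p = 0.000221), and changed by 0.46 ± 0.13 with miR-424-3p (adjusted p = 0.00766). KIF3B, a motor of outward transport in cilia, was depleted with miR-424-3p, at 9.37, 9.42 and 9.0 on the pull-downs, against 9.91, 9.81 and 9.96 on the inputs (-0.63 ± 0.12, adjusted p = 0.00047). It gave 0.01 ± 0.12 with miR-199a-5p, and its second probe gave 0.23 and -0.47. KIF3C, its relative, was enriched with miR-424-3p (0.30 ± 0.08, adjusted p = 0.00612), as was KIF24, which acts at centrioles (0.45 ± 0.08, adjusted p = 0.000246). KIF7, a regulator of hedgehog signalling in the cilium, passed in neither, at -0.17 and 0.20. KIF21A was depleted with miR-424-3p (-0.33 ± 0.12, adjusted p = 0.0273), a call lost without pull-down arrays 1 or 2 or input arrays 2 or 3 (-0.20 to -0.33). KIFC2 was enriched with miR-199a-5p (0.31 ± 0.12, adjusted p = 0.0437), a call lost when any of 7 arrays was left out (0.20 to 0.32).

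**Figure D4:**
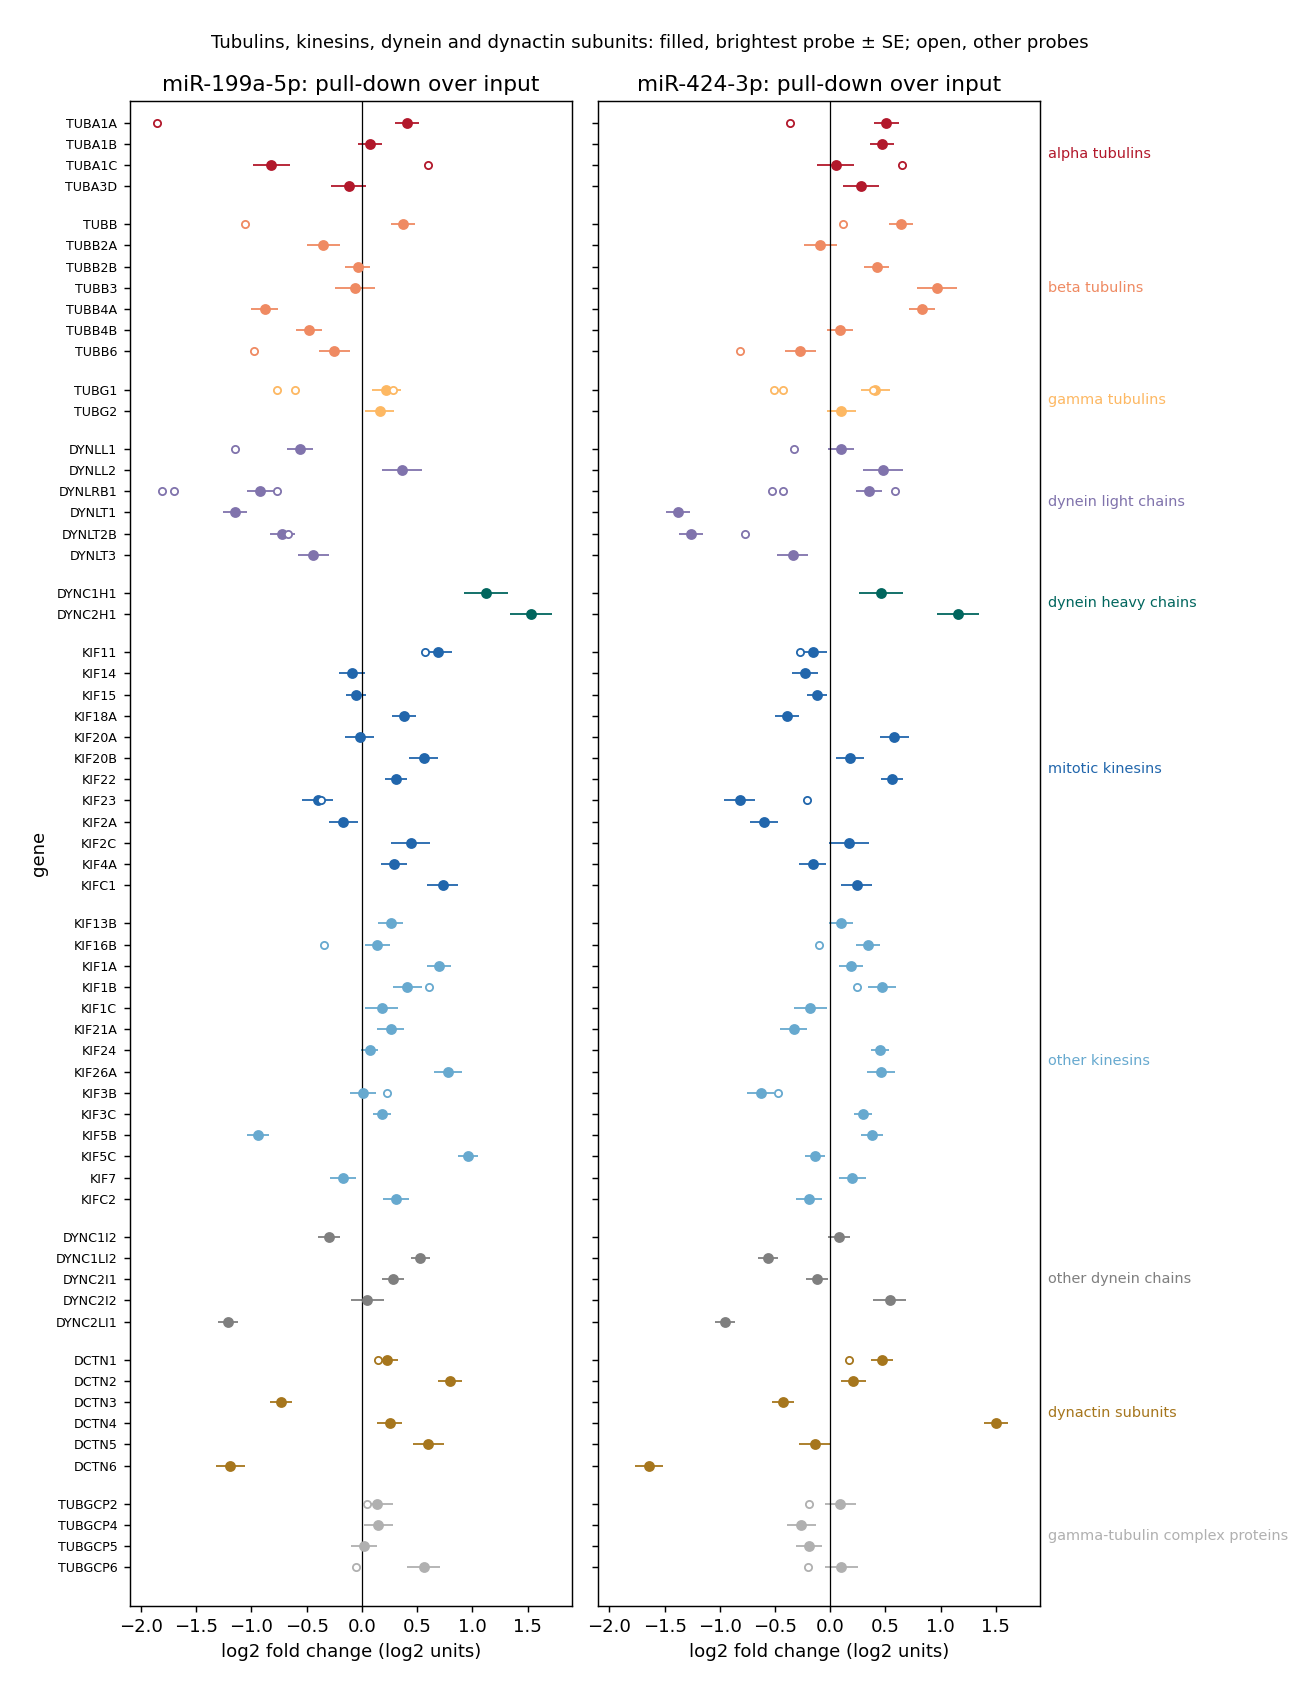
Change in pull-down over input (log2 units) of all 62 members by class, miR-199a-5p left and miR-424-3p right, with filled points and bars (± SE) for the brightest probe of a gene and open points for its other probes. The dynein light chains lie mostly left of 0 with miR-199a-5p and the heavy chains right of 0 with both, while kinesins and dynactin subunits lie on both sides.

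Over all 62 members, 19 were enriched, 14 depleted and 29 not called with miR-199a-5p, and 21 were enriched, 11 depleted and 30 not called with miR-424-3p. The shares with miR-199a-5p (30.6% and 22.6%) lay close to the background. With miR-424-3p they were 33.9% and 17.7%, against 30.3% and 25.7% of all genes, and by probe 20 of 82 were depleted (24.4%), against 28.8% of all probes. With miR-199a-5p the 3 pull-down arrays all lay above the inputs for 26 of the 62 members and all below for 15 of the 62. The first share exceeded the 32.7% of all genes, and the second lay near their 23.3%. With miR-424-3p this held for 23 and 15 of the 62 members. There the first share lay a little above the 34.1% of all genes, and the second below their 30.1%.

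By their own tests and brightest probes, 6 members were enriched with both miRNAs (DYNC2H1, KIF1B, KIF22, KIF26A, TUBA1A and TUBB) and 6 depleted with both (DCTN3, DCTN6, DYNC2LI1, DYNLT1, DYNLT2B and KIF23). The second probes of TUBA1A and TUBB were depleted with miR-199a-5p, at -1.86 and -1.06. The second KIF1B probe was not called with miR-424-3p (0.24). DYNLRB1, KIF5B and TUBB4A were depleted with miR-199a-5p and enriched with miR-424-3p. DYNC1LI2 and KIF18A went the other way, enriched with miR-199a-5p but depleted with miR-424-3p. Each of these 5 also passed the test of the difference between the enrichments. The direction of DYNLRB1 with miR-424-3p rests on its brightest probe, since its other probes gave -0.43, 0.59 and -0.53, all called. With the mean of its probes DYNLRB1 was not called there. The share of all genes with such joint calls, alike or opposite, was not counted, so these numbers have no background beside them.

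The difference between the enrichments, miR-199a-5p minus miR-424-3p, was called for 24 members, 13 higher (21.0%) and 11 lower (17.7%). The background was close to these shares, at 20.9% higher and 18.1% lower, with a median of 0.04 over all genes. In the short class 1 gene was higher (DYNLT2B) and 7 were lower, with a median of -0.27, and no tubulin was higher, also at an unadjusted p under 0.05. Over all probes 18.8% were higher and 18.0% lower. In the long class 8 genes were higher and 3 lower, with a median of 0.37. The 7 lower genes of the short class were 5 tubulins and 2 dynein light chains.

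The largest differences upward were KIF5C (1.10 ± 0.12, adjusted p = 2.57e-05), DYNC1LI2 (1.09 ± 0.13, adjusted p = 4.17e-05), KIF11 (0.85 ± 0.18, adjusted p = 0.00234), KIF18A (0.77 ± 0.15, adjusted p = 0.00156) and DCTN5 (0.74 ± 0.19, adjusted p = 0.00884). Downward they were TUBB4A (-1.71 ± 0.18, adjusted p = 6.63e-06), KIF5B (-1.33 ± 0.15, adjusted p = 1.16e-05), DYNLRB1 (-1.27 ± 0.17, adjusted p = 5.63e-05), DCTN4 (-1.24 ± 0.16, adjusted p = 4.25e-05) and TUBB3 (-1.03 ± 0.26, adjusted p = 0.00619). These 10 calls held when any 1 array was left out.

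No member differed between the inputs (limma, two-sided), whose background was 0.0104% of genes in each direction (0.00652% of probes higher and 0.013% lower). At an unadjusted p under 0.05, 3 members were higher and 2 lower in the miR-199a-5p inputs. DCTN4 measured 9.85, 10.10 and 10.02 in the miR-199a-5p inputs and 9.67, 9.74 and 9.29 in the miR-424-3p inputs, which do not overlap (0.42 ± 0.11, adjusted p = 0.351). Its difference between the enrichments includes that gap. DYNC2LI1 measured 9.03, 9.20 and 9.31 in the miR-199a-5p inputs and 8.72, 8.95 and 8.92 in the miR-424-3p inputs (0.32 ± 0.09, adjusted p = 0.431). The short class had a median of -0.11 and the long class of 0.06 between the inputs.

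A list of 81 symbols, some of them alternative names of the same gene, covered genes that act with tubulin and its motors. The 66 listed genes that were measured showed how the surroundings of the members behaved. 21 of them were enriched and 14 depleted with miR-199a-5p, and the miR-424-3p counts were again 21 and 14. These shares (31.8% and 21.2%) lay near the background in both, with medians of 0.08 and 0.09. TTL, the ligase that adds tyrosine back to alpha tubulin, was enriched with miR-199a-5p (1.37 ± 0.13, adjusted p = 2.76e-06) and gave -0.04 with miR-424-3p. CAMSAP2, which holds minus ends, was enriched with miR-199a-5p (1.34 ± 0.11) but depleted in the miR-424-3p pull-down (-0.46 ± 0.11). CAPZB, which caps actin and dynactin filaments, and SPAG5, a spindle protein, were enriched with miR-199a-5p by 1.24 and 1.13, and gave 0.40 (called) and -0.17 (not called) with miR-424-3p.

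NDEL1 and NDE1, which regulate dynein, were enriched with miR-424-3p by 1.40 ± 0.08 and 0.98 ± 0.12, and with miR-199a-5p by 0.50 and 0.56. MAP7D1, a microtubule-associated protein, and MZT2A, a small protein of the gamma-tubulin ring, were enriched with miR-424-3p by 1.02 and 0.95 and not called with miR-199a-5p. On the depleted side KNSTRN, which works at spindle and kinetochore, gave -1.58 ± 0.09 in the miR-199a-5p pull-down and -1.08 ± 0.09 in the miR-424-3p pull-down. MZT1, a small subunit of the gamma-tubulin ring, gave -0.95 and -1.08. NEDD1, which places that ring on the spindle, was depleted in both pull-downs, at -0.70 for miR-199a-5p and -0.51 for miR-424-3p, and STMN1, which binds free tubulin, gave -0.62 and -0.63. ACTR10, the actin-related subunit at the pointed end of dynactin, was also depleted in both, at -0.55 for miR-199a-5p and -1.29 for miR-424-3p, as was KIFBP, which binds kinesins, at -0.44 and -1.20. Between the inputs no gene of the list was called, while 4 were higher and 3 lower at an unadjusted p under 0.05.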

How the data were processed

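RNA of 12 arrays (Illumina Human HT-12, 4 groups of 3) was grouped by sample titles. The authors deposited normalized log2 values for 15329 probes, made with lumi (version 2.2.1 in the submitters' processing notes) by background adjustment, a variance-stabilizing transformation, which compresses differences at low signal, and robust spline normalization. A table of signals before normalization had 24 columns of per-sample values whose names match no label, and it was not used. The mock-transfected controls of the study were not analysed here, and inputs took their place.

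Probes took their symbols from the platform annotation (12432 had 1 symbol), and all 62 members were found by gene ID in RefSeq (GRCh38.p14). Members, classes and lists were chosen with earlier results of these data known. limma (version 3.58.1, R 4.3.3; lmFit and eBayes, 8 residual degrees of freedom) was fitted to all arrays without covariates. Tests were one-sided in each tail, and two-sided for the inputs, with Benjamini-Hochberg adjustment over 15329 probes and a threshold of 0.05. The study used one-sided tests to call enrichment, and the lower tail was added here. The number of arrays limits the precision. The fit was tested on simulated data.

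Given in full were the 8 highest and 8 lowest called members of each pull-down whose arrays did not overlap, the 5 largest called differences each way, and DYNC1H1, KIF5B, KIF11, TUBA1A, TUBB, TUBG1, DYNLL1 and DCTN1. From the list of microtubule partners up to 4 called genes each way per pull-down were named. Alternatives were cyclic loess, median scaling, quantile normalization, weights for arrays, a block on replicate number, dim probes left out, the mean of a gene's probes, two-sided tests, a 1.5-fold minimum, only the groups compared, and leaving out each array. Using the dimmest probe of a gene was added after seeing the data. The correlation with protein length was not computed, since protein lengths were not used here.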

Additional observations from a re-analysis of the deposited data

Results flagged for a closer look

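For 24 members the enrichment with miR-199a-5p differed from that with miR-424-3p in the limma test of the difference itself. The shares of members called higher (21.0%) and lower (17.7%) lay close to those of all genes (20.9% and 18.1%). Among the tubulins the differences were -1.71 for TUBB4A, -1.03 for TUBB3, -0.87 for TUBA1C, -0.57 for TUBB4B and -0.46 for TUBB2B. TUBA1C had a second probe with -0.05, not called, while TUBA1A (-0.10) and TUBB (-0.27), not called by their brightest probes, had second probes that were called, at -1.51 (adjusted p = 0.00041) and -1.19 (adjusted p = 0.00334), and were called as the mean of their probes, at -0.80 and -0.73. Among dynein chains they were -1.27 for DYNLRB1, -0.65 for DYNLL1, 0.39 for DYNC2I1, 0.54 for DYNLT2B and 1.09 for DYNC1LI2, where the second DYNLT2B probe gave 0.10 and was not called. The dynactin subunits gave -1.24 for DCTN4, 0.59 for DCTN2 and 0.74 for DCTN5. Kinesins gave -1.33 for KIF5B, -0.60 for KIF20A, -0.38 for KIF24, 0.45 for KIF4A, 0.50 for KIFC2, 0.51 for KIF1A, 0.59 for KIF21A, 0.64 for KIF3B, 0.77 for KIF18A, 0.85 for KIF11 and 1.10 for KIF5C. Calls of TUBB2B (-0.32 to -0.48 where lost), DYNC2I1 (0.32 to 0.42), KIF4A (0.35 to 0.49), KIFC2 (0.39 to 0.51) and KIF20A (-0.52) were lost without some array.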

How the results depend on the processing

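Of the members' main counts and class medians under all alternatives, 242 values stayed within the limits set for them and 16 moved. With a fold of at least 1.5 there were 9 members higher and 9 lower with miR-199a-5p, 5 higher and 7 lower with miR-424-3p, and 8 higher in the difference. Array weights called 2 members higher between the inputs (DCTN4 and DYNC2LI1). For miR-199a-5p the median of the short class was -0.35, for miR-424-3p 0.09, when a gene was the mean of its probes, and -0.48 and 0.09 with its dimmest probe. With the mean of probes the changes of TUBA1A, TUBB and TUBG1 turned to -0.73, -0.35 and -0.22 with miR-199a-5p, and that of TUBG1 to -0.03 with miR-424-3p. With the dimmest probe, TUBA1A, TUBA1C, TUBB and TUBG1 turned to -1.86, 0.60, -1.06 and -0.61 with miR-199a-5p, and DYNLL1, TUBA1A and TUBG1 to -0.33, -0.36 and -0.43 with miR-424-3p. Probes of 1 gene differ by construction in these settings, and the cause of their difference was not tested. Leaving out 1 array gave 16 to 22 members higher and 11 to 15 lower with miR-199a-5p, 18 to 22 and 10 to 12 with miR-424-3p, 10 to 14 and 9 to 13 in the difference, and 0 between the inputs. The short-class median was then -0.33 to -0.18 with miR-199a-5p and 0.16 to 0.37 with miR-424-3p, and the long-class median 0.21 to 0.31 and 0.07 to 0.20. Calls of 7, 5 and 5 members were lost without some array, and 10, 5 and 10 others were called only without one, in the miR-199a-5p, miR-424-3p and difference tests.

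Same-numbered pull-down and input arrays deviated together at r = 0.0751, 0.0207 and -0.10 with miR-199a-5p, and at 0.134, 0.0598 and 0.258 with miR-424-3p. Pairs with different numbers gave -0.135 to 0.128 with miR-199a-5p and -0.229 to 0.0769 with miR-424-3p. With 3 arrays a group these values cannot show whether the arrays were paired. With the replicate block 32 of 33 calls with miR-199a-5p were kept (KIFC2 was lost) and 5 gained, 32 of 32 with miR-424-3p were kept and 1 gained, and 24 of 24 differences were kept and 3 gained. Background correction from the signals before normalization and classes by protein length were not run. Depth is not defined for arrays, and members with signals near 8 lie where differences are compressed.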
